A study of Tursiops truncatus with 5 samples.

Results

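Interferon response and antiviral genes were examined in whole blood of 3 bottlenose dolphins (Tursiops truncatus). The list held 50 gene symbols, each standing for a human Entrez Gene identifier, and a deposited transcript counted as a member where it carried one of those identifiers. Of the 50 genes, 31 had at least 1 deposited transcript, and these 31 had 39 of the 25877 transcripts in the table and stood among 7671 genes with an Entrez identifier. A single transcript stood for 25 of the 31 genes, 4 genes had 2 transcripts, and OAS1 and SAMHD1 had 3 each. Values of transcripts with the same identifier were summed per gene.

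The 5 libraries came from Pele, a 28 year old female sampled in April and June, from Hua, a 5 year old male sampled in June, and from Keo, a 12 year old female sampled in July and September, all in 2013. The animals were healthy, lived under human care at 1 facility in Hawaii and formed 1 condition, with no treatment named. Blood was drawn into tubes that fix RNA, and none of these RNA samples was depleted of globin. Animal and age cannot be told apart, Hua was the only male, and Keo and Pele had no month in common. A p-value between Keo and Pele measures only the spread between libraries drawn from the same animal on different dates.

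Interferons are signalling proteins that cells release when they detect a virus. They bind a receptor made of IFNAR1 and IFNAR2, the kinases JAK1 and TYK2 attached to that receptor pass the signal on, and a complex that contains STAT2 and IRF9 switches on a large set of genes. The products of those genes detect foreign RNA, block its translation, cut or edit it, or change other proteins, and their RNA in blood is widely used as a gauge of a recent interferon signal. In human blood the set tends to move together. The roles named below are those known in humans and mice. The symbols follow the best human protein match of each dolphin transcript, so the assignment among near-identical family members (IFIT, OAS and GBP) is uncertain.

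Values are given on 2 scales. Deposited TPM (transcripts per 1000000) is a share of all transcripts in a library, and 2 gene identifiers took 63.7% of that share in Pele April, 55.9% in Pele June, 72.2% in Hua June, 74.4% in Keo July and 69.6% in Keo September. All other genes are pushed down where that share is large. Rescaled TPM is the same value after the 4 transcripts of those 2 identifiers were removed and the rest brought back to a total of 1000000, and levels below are rescaled TPM unless deposited TPM is stated. The level of a typical gene was close between libraries on that scale, with a median over all features of 7.81 in Hua June to 8.49 in Pele April.

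The antiviral genes were highest in Keo September. Of the 31 genes, 25 had their highest level in that library (80.6%), against 16.7% of the 7669 genes with an Entrez identifier. Pele April held the highest level of 3 genes (background 16.0%), Pele June of 2 (35.7%), Hua June of 1 (23.3%) and Keo July of 0 (8.28%). None of the 31 had its lowest level in Keo September (background 11.0%), while 14 had it in Keo July (32.1%), 9 in Pele April (24.2%), 5 in Hua June (24.3%) and 3 in Pele June (8.37%). Summed over the 31 genes the level was 1835 in Pele April, 1852 in Pele June, 1756 in Hua June, 1725 in Keo July and 2608 in Keo September. On this scale the other 4 sums lay close together and Keo September stood above them, at 1.45 times their median. On deposited TPM the sums were 661, 810, 485, 439 and 789 in the same order, so that Pele June was highest and Keo September second. These counts describe 1 library and have no replicate check. In bulk blood, fewer cells of a type and less RNA per cell cannot be told apart. IFIT1 was already known to be high in that library when the list was drawn up, so no test was made of that library against the other 4. It is itself among the 25 genes counted above.

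**Figure D1:**
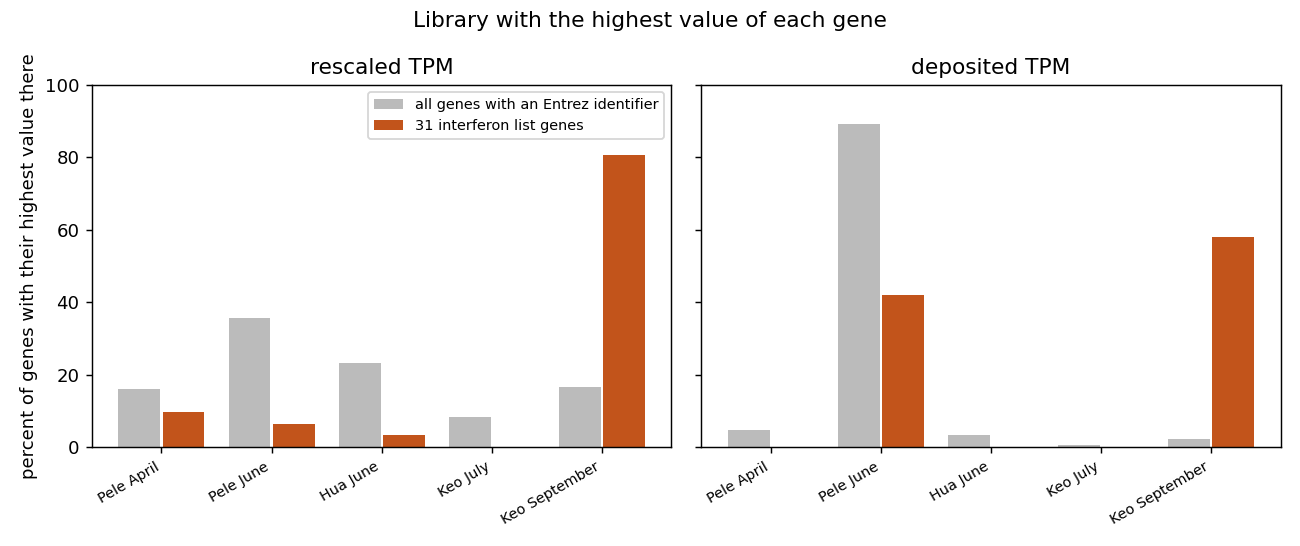
Share of genes (percent, vertical axis) whose highest level fell in each of the 5 libraries, on rescaled TPM (left) and deposited TPM (right), for the 31 interferon list genes (orange bars) and for all genes with an Entrez identifier (grey bars). Keo September held the highest level of 80.6% of the list and 16.7% of all genes on rescaled TPM, and of 58.1% and 2.26% on deposited TPM.

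IFIT1 (Entrez Gene 3434), which binds viral RNA that lacks the cap of host RNA and blocks its translation, had levels of 30.1 in Pele April, 35.6 in Pele June, 64.4 in Hua June, 61.2 in Keo July and 163.9 in Keo September. The mean was 71.0 ± 54.1 (SD, n = 5). Keo September was 3.39 times the median of the other 4 libraries and 2.54 times the next highest, Hua June, while Hua June and Keo July nearly coincided, with a mean 1.91 times that of Pele. In deposited TPM the levels of IFIT1 were 10.9, 15.6, 17.8, 15.6 and 49.6 in the same order of libraries. IFIT5, a relative that binds RNA with an uncapped end, was scarcer, at 3.36, 3.86, 5.28, 4.24 and 7.38 in that order. Its ratio of Keo September to the median of the others was 1.82, and Keo September and Hua June were again its highest and second highest libraries. IFIT2 and IFIT3 had no transcript with their identifier.

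The OAS genes encode enzymes that detect double-stranded RNA and make short oligoadenylates, which activate an RNA-cutting nuclease. OAS2 (Entrez Gene 4939) had the largest ratio of the list, with levels of 15.5 in Pele April, 17.3 in Pele June, 7.31 in Hua June, 18.9 in Keo July and 57.4 in Keo September, a ratio of 3.50. OAS1 had levels of 62.0, 71.5, 55.1, 100.7 and 194.9 in the same order, a ratio of 2.92. OAS3 had levels of 18.3, 18.3, 15.6, 21.4 and 44.9, a ratio of 2.46. In all 3 genes Keo September was highest, Keo July second and Hua June lowest, so Hua took a different place here than for IFIT1. The 3 OAS1 transcripts and the OAS2 transcript belong to the same component of the transcript assembly, and the split of reads among them is uncertain. The most abundant OAS1 transcript had a ratio of 2.96 (161.3 in Keo September), the second 3.38 (29.6) and the third 1.15 (4.00, with its highest level, 6.87, in Hua June). OASL had no transcript.

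ISG15 (Entrez Gene 9636), a ubiquitin-like protein that is attached to other proteins during the antiviral response, had levels of 18.2, 24.6, 39.0, 33.8 and 72.6 in Pele April, Pele June, Hua June, Keo July and Keo September, a ratio of 2.49. HERC5, the main ligase that attaches ISG15 in human cells, had levels of 36.4, 40.0, 53.8, 60.9 and 92.5, a ratio of 1.97. Both Keo libraries and Hua June were above both Pele libraries for ISG15 and for HERC5. The other genes of this system on the list, USP18, which removes ISG15, and HERC6, had no transcript.

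**Figure D2:**
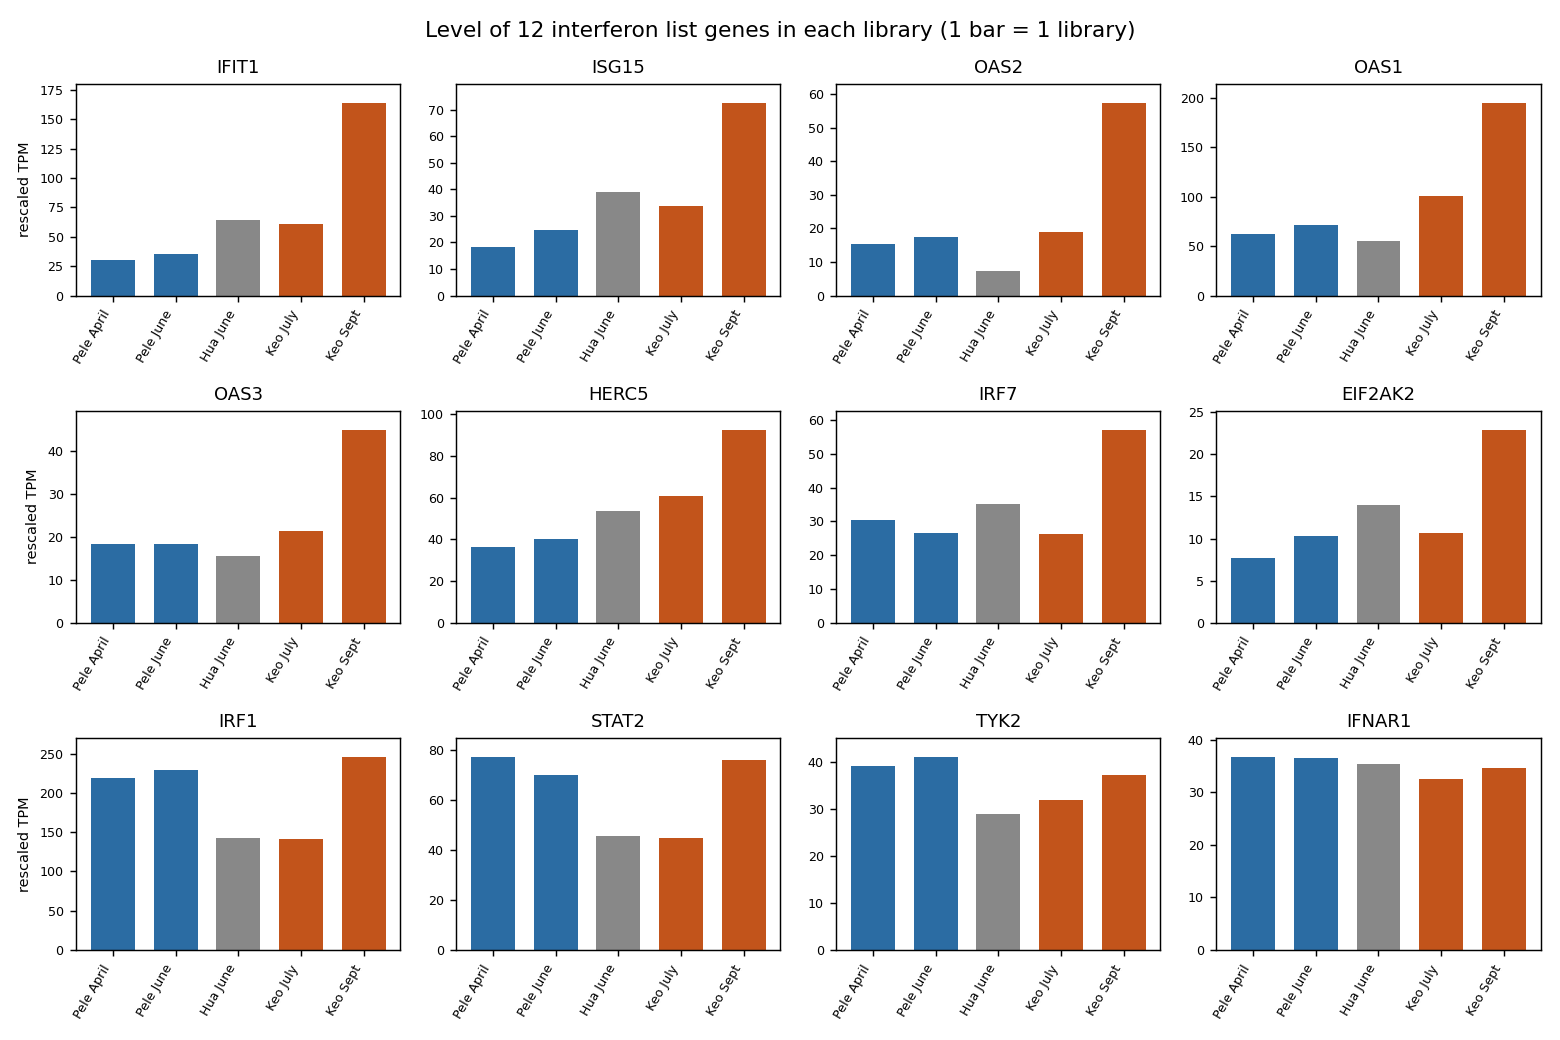
Level in rescaled TPM (vertical axis from 0, 1 scale per gene) of 12 interferon list genes in each library, with 1 bar per library (Pele blue, Hua grey, Keo orange) and no error bar because a bar is a single library. Keo September was highest for the genes of the upper 2 rows, while IRF1 and STAT2 were also high in Pele, TYK2 was highest in Pele, and IFNAR1 differed little.

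Among sensors of foreign nucleic acid, EIF2AK2, a kinase that halts translation once it binds double-stranded RNA, had levels of 7.72 in Pele April, 10.3 in Pele June, 14.0 in Hua June, 10.6 in Keo July and 22.9 in Keo September, a ratio of 2.19. IFIH1, the sensor of long double-stranded RNA, ranged from 16.0 in Pele April to 33.5 in Keo September with a ratio of 1.65. ZBP1, which binds nucleic acid in the Z form, lay between 2.75 in Keo July and 3.91 in Pele June outside Keo September, where it was 7.11. TRIM25, a ubiquitin ligase that assists RNA sensing, departed from these 3: it was 18.7 and 18.2 in Pele, 14.2 in Hua June, 9.23 in Keo July and 18.0 in Keo September. Its Keo September value thus lay just under both Pele values, and Keo July was lowest. DDX58 and DHX58, the other RNA sensors of the list, had no transcript.

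The enzymes that act on nucleic acids or nucleotides were mixed. ISG20, an exonuclease that degrades RNA, had levels of 27.0 in Pele April, 36.3 in Pele June, 23.7 in Hua June, 22.3 in Keo July and 58.1 in Keo September, a ratio of 2.29. Both Pele libraries were above Hua June and Keo July here, where for IFIT1 both were below. ADAR, which edits adenosine in double-stranded RNA, ranged from 29.3 to 50.1 with a ratio of 1.35, and CMPK2, a nucleotide kinase, from 13.0 to 23.2 with a ratio of 1.44. SAMHD1, which breaks down the building blocks of DNA, was the most abundant gene of the list, at 571 in Pele April, 548 in Pele June, 587 in Hua June, 571 in Keo July and 635 in Keo September. Its coefficient of variation (SD over mean) was 5.59%, against a median of 26.2% for the list and 13.7% for all genes with an Entrez identifier. The 3 transcripts of SAMHD1 differed, with ratios of 0.96, 1.19 and 1.32, and the first was highest in Keo July at 287.8. RSAD2 had no transcript.

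Of the transcription factors, IRF7, which drives further interferon production, had levels of 30.4 in Pele April, 26.5 in Pele June, 35.0 in Hua June, 26.2 in Keo July and 57.0 in Keo September, a ratio of 2.01. The other 3 factors were high in Keo September and in both Pele libraries. IRF1 had levels of 219.3, 228.5, 142.3, 141.0 and 245.3 in the same order. IRF9 had levels of 81.6, 79.7, 63.0, 57.7 and 97.1. For STAT2 they were 77.0, 69.9, 45.7, 44.6 and 76.1. Hua June and Keo July were thus below both Pele libraries for all 3, and the STAT2 level of Keo September fell between those of Pele April and Pele June. The ratios to the median of the other 4 libraries were 1.36 for IRF1, 1.36 for IRF9 and 1.32 for STAT2, and they rest on the low values of Hua June and Keo July.

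The receptor and its kinases had ratios near 1. IFNAR1 had levels of 36.7 in Pele April, 36.6 in Pele June, 35.4 in Hua June, 32.7 in Keo July and 34.8 in Keo September, with a coefficient of variation of 4.69%, the smallest of the list. IFNAR2 had levels of 52.5, 53.8, 31.7, 51.0 and 54.5 in that order. Hua June was apart from the other 4 libraries of IFNAR2, which lay within 51.0 to 54.5. JAK1 had levels of 113.5, 100.8, 120.8, 112.1 and 117.7. TYK2 had levels of 39.1, 41.1, 29.0, 31.9 and 37.3, with Pele above Hua June and Keo July. The ratios of Keo September to the median of the others were 0.97 for IFNAR1, 1.05 for IFNAR2, 1.04 for JAK1 and 1.05 for TYK2. None of the 4 exceeded 1.5, and the level of the receptor and kinase genes summed to 242 in Pele April and 244 in Keo September.

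The other induced genes had ratios between 0.77 and 1.80. XAF1, which promotes cell death, ranged from 5.88 in Pele April to 12.9 in Keo September (ratio 1.80), GBP1, a GTPase that coats intracellular pathogens, from 40.5 in Keo July to 88.9 in Keo September (1.73), and SP110, a nuclear body protein, from 19.5 in Pele June to 33.4 in Keo September (1.52). PARP14 and PARP9, members of the ADP-ribosyltransferase family, had ratios of 1.48 and 1.41, EPSTI1 1.46 and IFI35 1.39. IFI35 was the fourth most abundant gene of the list, with levels of 97.5, 111.3, 86.0, 84.7 and 127.8 in Pele April, Pele June, Hua June, Keo July and Keo September. IFI6 (Entrez Gene 2537), a small membrane protein with antiviral and survival functions, went the other way, with levels of 43.8 and 46.6 in Pele April and June, 32.4 in Hua June, 25.8 in Keo July and 29.4 in Keo September. Both Keo libraries were below the other 3 for IFI6, and its ratio of 0.77 was the lowest of the list.

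**Figure D3:**
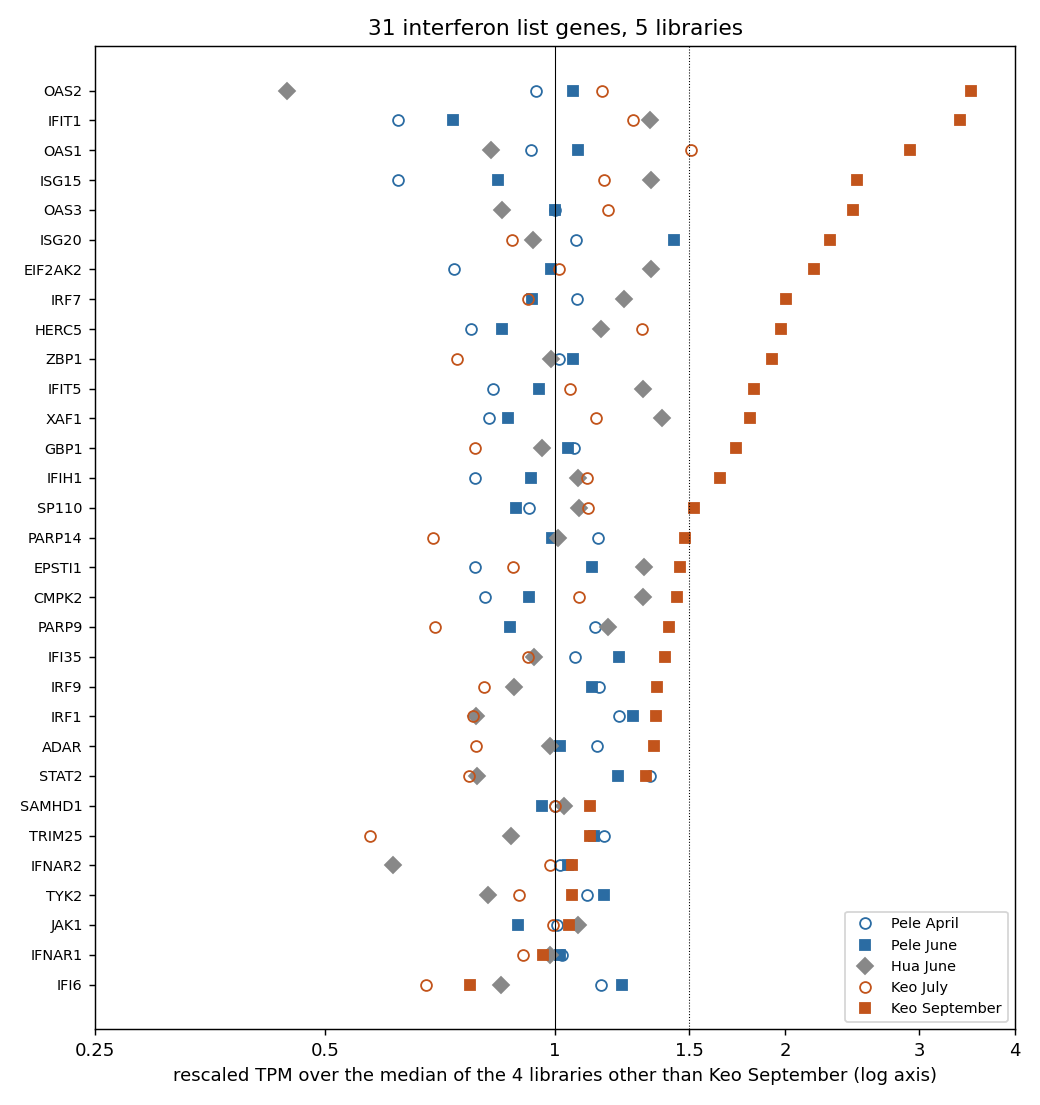
Rescaled TPM of the 31 interferon list genes in each library, divided by the median of the 4 libraries other than Keo September (horizontal log axis), with genes ordered by their Keo September ratio and the dotted line at 1.5. The filled orange squares (Keo September) run from 3.50 for OAS2 down to 0.77 for IFI6, and 15 of the 31 lie above 1.5.

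Compared with IFIT1, then, the other genes followed its excess in Keo September to unequal degrees. The 8 other genes with the largest ratios were OAS2, OAS1, ISG15, OAS3, ISG20, EIF2AK2, IRF7 and HERC5, from 3.50 down to 1.97. Over all 31 genes the median ratio was 1.48, against 1.02 for all genes with an Entrez identifier. Keo September was over 1.5 times the median of the other 4 libraries for 15 genes (48.4%), against 1.90% of the background, and over 2 times for 8 (25.8%), against 0.430%. Both counts include IFIT1 itself, which was known beforehand to be high in that library. SP110 at 1.52 was just inside the 1.5 limit and PARP14 at 1.48 just outside, and IRF7 at 2.01 and HERC5 at 1.97 were on either side of 2. Of the 24 genes in the background of 7669 whose Keo September value was separated from the other 4 libraries by more than 0.71 of the whole range (0.313%), 6 were list members, namely IFIT1, OAS2, OAS3, IRF7, ZBP1 and GBP1. With any library in place of Keo September the count was 7 (background 4.66%), the other gene being IFNAR2, which was low in Hua June.

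**Figure D4:**
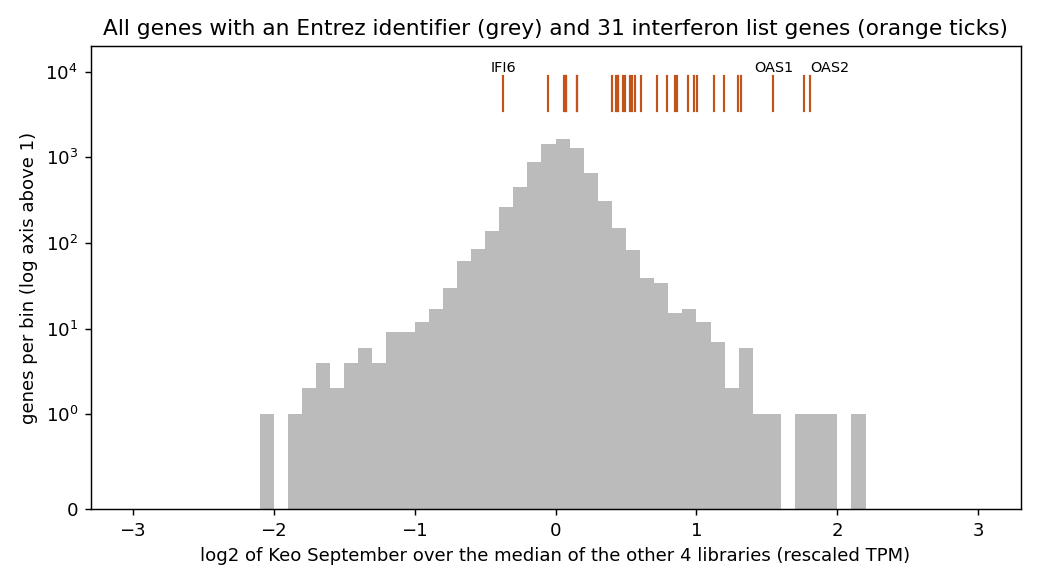
Number of genes (vertical axis, logarithmic above 1) by the log2 ratio of Keo September to the median of the other 4 libraries in rescaled TPM (horizontal axis), for all 7669 genes with an Entrez identifier (grey) with a tick for each of the 31 interferon list genes (orange). The grey distribution centres near 0, and 29 of the ticks lie to the right of 0, with IFNAR1 and IFI6 to its left.

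In the whole table, list members stood among the features with the largest excess of Keo September over the highest other library. Of the 16357 features with a mean level of at least 5, the 50 with the largest excess included 9 list members, although only 15 of those 50 had an Entrez identifier at all. OAS2 was at rank 1, with 3.04 times the next highest library, IFIT1 was at rank 3 with 2.54, OAS3 at rank 9 with 2.10, OAS1 at rank 12 with 1.94 and ISG15 at rank 15 with 1.86. EIF2AK2, GBP1, IRF7 and ISG20 were the other members. Among the 6916 genes with an Entrez identifier and that mean level, the first 4 places were OAS2, IFIT1, OAS3 and OAS1, and 13 of the first 50 were list members, of the 29 that reached the level.

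Within Keo alone, September was the higher of the 2 dates. Keo September was above Keo July for every one of the 31 genes, by 1.71 times at the median and by 1.05 times (JAK1) to 3.04 times (OAS2), against a median of 1.08 for all genes with an Entrez identifier. Keo September was over 1.5 times Keo July for 22 of the 31, against 5.62% of the background, and under 1/1.5 of it for 0, against 1.66%. The share of all genes above Keo July was not counted, so no weight is put on the count of all 31. Keo July was the lowest library for 14 of the 31 (background 32.1%), so these ratios also rest on low July values. STAT2 (1.71) and TRIM25 (1.94) are such genes, with a Keo September level that was not above both Pele libraries. In Pele the June level was 1.04 times the April level at the median (all genes 1.07) with a range of 0.77 for PARP9 to 1.42 for EPSTI1, and 0 of the 31 exceeded 1.5 (background 2.84%) or lay under 1/1.5 (1.11%). The 2 dates of Keo were thus farther apart for these genes than the 2 dates of Pele. Each date is a single library, so the difference between dates was not tested.

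Without Keo September, the highest of the remaining 4 libraries was Hua June for 11 of the 31 genes (background 27.0%), Pele April for 7 (18.6%), Pele June for 7 (42.5%) and Keo July for 6 (11.9%). A division then became visible that was looked for only after the values were seen. Hua June and Keo July were both above both Pele libraries for 10 genes (background 16.6%), namely IFIT1, IFIT5, ISG15, HERC5, IFIH1, EIF2AK2, XAF1, SP110, CMPK2 and SAMHD1. They were both below both Pele libraries for 13 genes (41.9%), which is near the background of 36.6%. These were STAT2, IRF1, IRF9, TRIM25, TYK2, IFNAR1, IFNAR2, ISG20, IFI6, IFI35, ADAR, ZBP1 and GBP1. The ratio of the mean of Hua June and Keo July to the mean of Pele ranged from 1.91 for IFIT1 to 0.61 for STAT2. The same 2 libraries were low in a neutrophil list, of which 3 of 6 genes had a transcript and whose summed level was 3821 in Pele April, 4144 in Pele June, 1433 in Hua June, 1940 in Keo July and 2787 in Keo September. They were high in an erythroid list (4 of 6 genes), which summed to 9162, 6214, 20229, 14375 and 11545 in the same order. Keo September was likewise below both Pele libraries in the neutrophil list and above both in the erythroid list. Hua June and Keo July were also both below Pele in the monocyte, platelet, and natural killer and cytotoxic sums. In the T cell and eosinophil sums they were both above Pele, and the B cell and plasmacytoid dendritic cell sums were mixed. The part of blood cell makeup in this division was not tested.

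The sums of the other cell lists were not highest in Keo September. Monocyte genes (5 of 5 with a transcript) summed to 25042, 31114, 19556, 24877 and 30048 in Pele April, Pele June, Hua June, Keo July and Keo September, so that Pele June, not Keo September, was highest. T cell genes (5 of 6) lay between 596 and 693 with Hua June highest, B cell genes (4 of 5) between 460 and 637, natural killer and cytotoxic genes (6 of 7) between 345 and 578, and plasmacytoid dendritic cell genes (2 of 4) between 29.5 and 45.5. Platelet genes (3 of 4) summed to between 546 and 820. No gene of these lists with a transcript was at 0 in any library, and Keo September was over 1.5 times the median of the others for 1 of their genes, in the eosinophil list (2 of 2), whose sum was highest in Keo July at 20.4. The identifiers of these lists, and of the wider pathway list that follows, were paired with their genes from general knowledge, and a gene of them is named only where a supplementary table of the study pairs its identifier with a description.

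Genes of the wider interferon pathway had a smaller median ratio than the list. Of 34 further identifiers for interferon receptors, signalling partners, antigen processing and other induced genes, 31 had a transcript. Keo September was highest for 10 of these 31, against 16.7% of all genes with an Entrez identifier. On deposited TPM it was highest for 0 of them (background 2.26%). On rescaled TPM it was over 1.5 times the median of the others for 0, which is not far from the background of 1.90%. The median ratio was 1.08, from 0.33 to 1.42, against 1.02 for all genes. One of them, SIGLEC1, an interferon-induced lectin of monocytes and macrophages, had levels of 18.5 in Pele April, 26.1 in Pele June, 25.4 in Hua June, 23.3 in Keo July and 33.4 in Keo September, a ratio of 1.37. Beside these, the median ratio was 2.92 for the OAS genes, 2.23 for ISG15 and HERC5, 1.36 for the STAT and IRF factors and 1.05 for the receptors and kinases, all given as a description without a test.

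Pele and Keo were each sampled on 2 dates, so they gave the only contrast with replicates. It was fitted with limma on log2(rescaled TPM + 1) over 23640 features, with Benjamini-Hochberg adjustment over all of them at 0.05. Of the list, 0 genes were called higher in Keo (background 1.07%) and 1, IFI6, was called lower (0.766%). For IFI6 the log2 difference was -0.69 with a standard error of 0.14 and an adjusted p of 0.0496 in limma, at the edge of the threshold, and both Keo libraries were below both Pele libraries. The call did not hold in 7 of the 11 other settings, in which its adjusted p ran up to 0.332 (without the Pele June library). At an unadjusted p under 0.05 there were 12 list genes and 3616 features. Of the 31 log2 differences, 20 were positive with a median of 0.19, against 42.9% of all features and a median of -0.05.

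IFIT1 was higher in Keo than in Pele by 1.59 on the log2 scale (standard error 0.38), an adjusted p of 0.0924 in limma, with both Keo libraries above both Pele libraries. HERC5 had a difference of 0.96 (0.19, adjusted p = 0.0578), ISG15 of 1.19 (0.31, 0.124) and OAS1 of 1.06 (0.27, 0.111), and none of the 3 passed the limma threshold. In these 3 genes, and also in OAS2 and OAS3, both Keo libraries were above both Pele libraries. The share of all features split in that way was not counted, so the split is a description only. Keo July stood at 18.9 for OAS2 and 21.4 for OAS3, against 17.3 and 18.3 in Pele June. OAS2 differed by 0.97 with a standard error of 0.41 and OAS3 by 0.74 with one of 0.29, with adjusted limma p-values of 0.316 and 0.289. In the same limma fit, 2 of 6 natural killer and cytotoxic genes and 1 of 3 neutrophil genes were called lower in Keo (background 0.766%). Called higher were 1 of 4 erythroid genes and 1 of 2 eosinophil genes (background 1.07%). Of these, GZMH, a protease of cytotoxic cells, differed by -2.29 (adjusted p = 0.000253 in limma). BNIP3L, a protein that clears mitochondria from maturing red cells, differed by 1.34 (adjusted p = 0.0154 in limma). Other genes of the natural killer and cytotoxic list did not share the difference of GZMH. KLRD1 differed by 0.41, SH2D1B by -0.02 and KLRB1 by -0.12, and these were not called. None of the 31 wider pathway genes was called in either direction, against the same background shares. The part of blood cell makeup in the contrast was not tested. Keo July and Keo September were far apart for the OAS genes and IFIT1, as given above, and that distance enters the standard error.

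The outcome depended on the Keo library used. Without Keo July, 8 list genes were called higher (background 0.558%) and 0 lower (0.567%) in limma, with adjusted p-values of 0.0011 to 0.0420 (IFIT1, OAS2, OAS1, ISG15, HERC5, OAS3, EIF2AK2 and IRF7), IFIT1 by 2.29 on the log2 scale. Without Keo September, IFIT1 was still called higher, by 0.88 (adjusted p = 0.0387, background 1.40%), while IFI6 (-0.79, adjusted p = 0.0473) and TRIM25 (-0.92, adjusted p = 0.0353) were called lower (1.64%). The fit without Keo July sets Keo September alone against Pele, and as IFIT1 was known to be high in that library its p-values are not independent evidence. In both fits the lone Keo library was assumed to vary like the libraries of Pele. The median log2 difference of the list was 0.70 without Keo July, against 0.001 for all features. Without Keo September it was -0.09, against -0.10 for all features. The list as a whole thus stood above the table without Keo July and near it without Keo September.

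**Figure D5:**
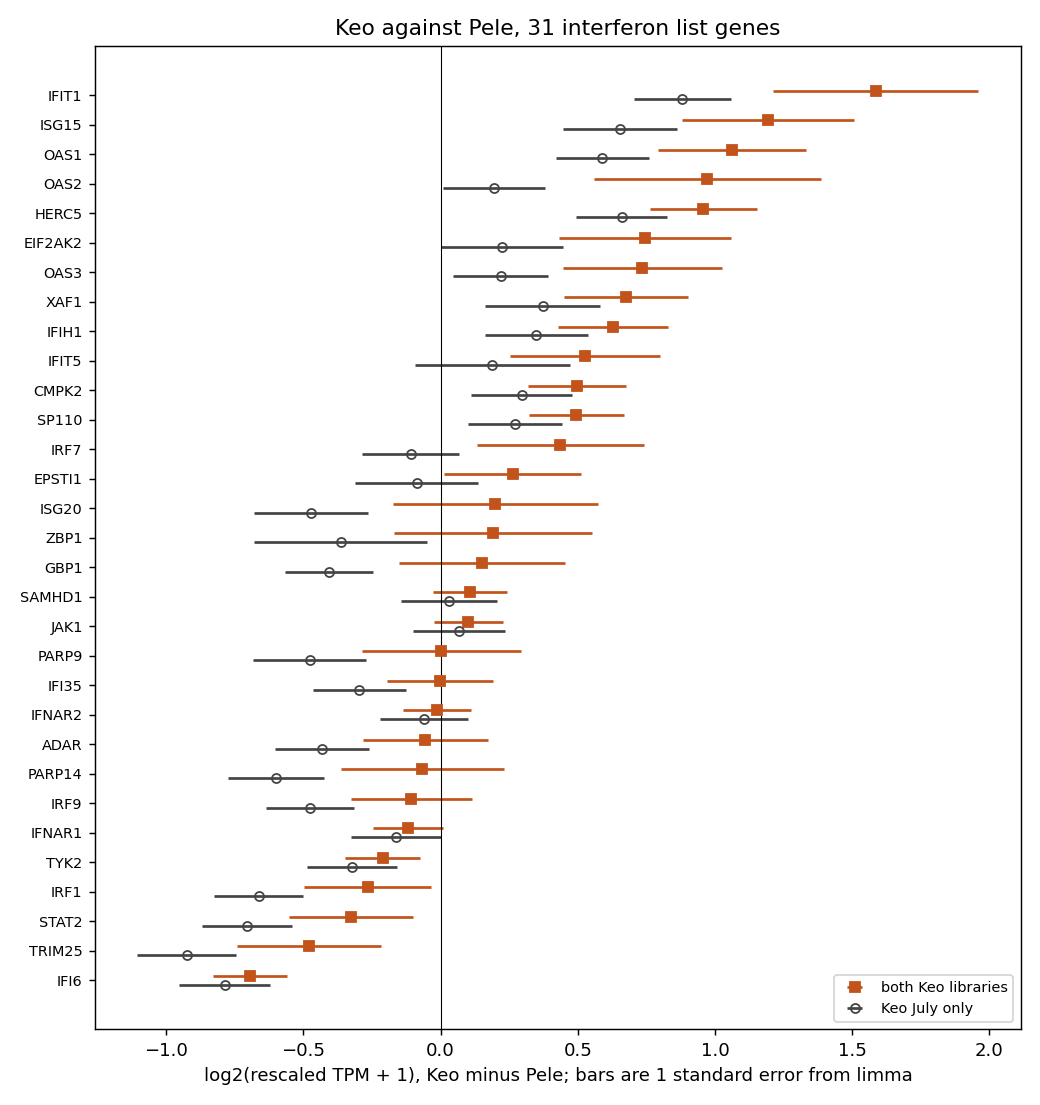
Difference between Keo and Pele in log2(rescaled TPM + 1) for the 31 interferon list genes (horizontal axis), with both Keo libraries (orange squares) and with Keo July only (open circles); bars are 1 standard error from limma. IFIT1, HERC5, ISG15 and OAS1 lie to the right of 0 in both, IFI6 and TRIM25 to the left in both, and ISG20, ZBP1, GBP1, IRF7, EPSTI1 and PARP9 change side.

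The choice of scale moved many of these values. On deposited TPM, 18 of the 31 genes had their highest level in Keo September (background 2.26%) and 13 in Pele June (89.1%), the library in which the 2 dominant identifiers took the smallest share, with 0 in Pele April (4.82%), Hua June (3.33%) or Keo July (0.469%). Keo September was over 1.5 times the median of the others for 14 genes (1.41%) and over 2 times for 7 (0.248%), and the median ratio was 1.37 against 0.96 for all genes. Only 2 genes with an Entrez identifier (0.0261%) had a deposited Keo September value separated from the others by more than 0.71 of the range, and both, IFIT1 and ISG15, were list members. Between Keo and Pele, deposited TPM gave 140 features higher and 2278 lower in Keo (0.592% and 9.64%) with a median log2 difference of -0.43, where rescaled TPM gave 253 and 181. The list median was then -0.27, with 12 of the 31 differences positive. IFIT1 was then called higher (1.05 on the log2 scale, adjusted p = 0.0211 in limma), against the downward shift of the table. IFI6 (-1.13, adjusted p = 0.0080) and TRIM25 (-0.84, adjusted p = 0.0375) were called lower.

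The 19 list genes without a transcript were IFIT2, IFIT3, MX1, MX2, OASL, RSAD2, IFI27, IFI44, IFI44L, DDX58, DHX58, USP18, HERC6, TRIM22, BST2, IFITM1, IFITM2, IFITM3 and GBP2. They include both MX GTPases, which trap viral components in most mammals and whose function is known to have been lost in toothed whales, and all 4 membrane factors that block viral entry or release (BST2 and the IFITM genes). Under these symbols, 6 of the 19 (MX2, OASL, RSAD2, DHX58, USP18 and BST2) are annotated in the RefSeq gene set of dolphin assembly mTurTru1.mat.Y. A missing row is no measurement of absence: no deposited transcript averaged under 1 TPM or was above 0 in fewer than 3 libraries, and only 38.3% of the transcripts carried an Entrez identifier, so a gene could be expressed below that limit or stand in the table without its identifier.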

How the data were processed

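Whole blood RNA was sequenced in 5 libraries not depleted of globin. Libraries made after globin depletion were not analysed here. The authors deposited 1 table of TPM values for transcripts assembled de novo with Trinity. Trimmomatic, Bowtie2 and RSEM 1.2.21 are named in the submitters' processing notes. Per the methods, transcripts were matched to human proteins by blastx. FPKM is the unit that the methods name, but each deposited column summed to 992549 to 994131, so the values were read as TPM and the planned test was kept. TPM keeps no read depth, so the depth of a library and its counting error are unknown. Precision is given as the spread between libraries.

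Libraries were grouped by the animal in the labels. Transcripts were summed per Entrez identifier and those without one were kept singly, which left 23640 features after the 4 transcripts of the 2 dominant identifiers were removed for rescaled TPM. The contrast of Keo with Pele used limma 3.58.1 (lmFit, eBayes with trend, 1 coefficient per animal, pseudocount 1) under R 4.3.3. Tables were made with pandas 2.3.3 and figures with matplotlib 3.10.9. In simulated data for this comparison (23640 features, 200 changed), 46.2% of 93 features shifted by 1 on the log2 scale and 100% of 107 shifted by 2 passed the threshold, with 9 false calls among 159. The simulated spread came from the limma fit itself, and both Keo libraries were shifted alike. These shares therefore do not carry over to list genes whose Keo libraries lay far apart. Alternatives were deposited TPM, quantile normalization, a pseudocount of 0.1, a mean of at least 5, single transcripts, no trend, Keo and Pele alone and each library left out.

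The members and all lists were chosen with earlier results of these data known. Levels in every library were given for IFIT1, the 8 other members with the largest ratio of Keo September to the median of the other 4 libraries, the 3 with the smallest, those called between Keo and Pele, the 5 most abundant and the receptor, kinase, STAT and IRF members. The symbols came with the list, and 1 identifier of its 51 came without a symbol and is not reported here. No sequence or coordinate is given.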

Additional observations from a re-analysis of the deposited data

Results flagged for a closer look

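A library was singled out where the gap between it and the nearest of the other 4 exceeded 0.71 of the whole range of a gene, which chance gives in about 1 in 20 groups of 5 values and which occurred in 4.66% of all genes with an Entrez identifier. Of the 31 list genes 7 met it, and in 6 of them Keo September was the library far above the rest. The Keo September levels in rescaled TPM were 163.9 for IFIT1, 57.4 for OAS2, 44.9 for OAS3, 57.0 for IRF7, 7.11 for ZBP1 and 88.9 for GBP1. The 7th was IFNAR2, for which Hua June, at 31.7, was far below the other 4 libraries. On deposited TPM the gap of Keo September passed that limit for IFIT1 and ISG15 only, among all genes with an Entrez identifier.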

How the results depend on the processing

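The number of features called between Keo and Pele was 434, and it was 2418 on deposited TPM, 66 without the trend and 24 to 719 with 1 library left out (24 without Pele June, 41 without Pele April, 266 without Keo July and 719 without Keo September). It was within 1.5 times the main count with quantile normalization, a pseudocount of 0.1, a mean of at least 5, single transcripts and Keo and Pele alone. The number of list genes called was 1 (IFI6) and became 3 on deposited TPM (IFIT1, IFI6 and TRIM25), 2 with quantile normalization (HERC5 and IFI6), 0 with a pseudocount of 0.1, single transcripts, no trend or Keo and Pele alone (4 to 12 list genes at an unadjusted p under 0.05 in the settings with 0 calls), and 0 to 8 with 1 library left out (0 without either Pele library, 3 without Keo September and 8 without Keo July). The cause was not tested. The number of list genes highest in Keo September was 25, and 18 on deposited TPM, 24 with quantile normalization and 25 to 26 with 1 other library left out. The number over 1.5 times the median of the others was 15, and 8 at the limit of 2, which was added after the data were seen, as were the other alternatives of this count and the left-out libraries of the count before it. IFI6, the only list gene called in the main fit, kept its sign in every setting. The sign of Keo minus Pele changed for 8 of the 31 genes on deposited TPM, 6 without Keo September, 7 without Keo July and at most 3 in any other setting. One of them was IRF7, with a log2 difference of 0.44 in the main fit and 0.98 without Keo July. It was -0.11 without Keo September and -0.05 on deposited TPM. The ratio of JAK1 went from 1.04 to 0.96 on deposited TPM. No paired analysis was possible because the replicate numbers were given in accession order and only name the libraries. Depth is unknown, so small differences of genes with low levels such as ZBP1 cannot be judged against counting error.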
